A study of Mus musculus with 10 samples.

Results

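The Hox genes of the 4 mammalian clusters were examined in the maturing mouse retina. They were taken from the deposited table by symbol, as Hoxa, Hoxb, Hoxc or Hoxd followed by a number. The 38 genes described here are among 20045 symbols, with 10 genes in Hoxa, 10 in Hoxb, 9 in Hoxc and 9 in Hoxd. Histone H3 dimethylated at lysine 4 (H3K4me2) and trimethylated at lysine 27 (H3K27me3) was mapped by ChIP-Seq in whole retinas of embryos at E17.5 and of pups at postnatal days 1, 7 and 15 (PN1, PN7, PN15), with 1 library for each of the 2 marks and 4 stages. Chromatin was pooled from at least 20 retinas of a stage, so that a library is a mixture of all retinal cell types and of many animals. The sample labels name Pde6b (rd1/rd1) mutant mice, which lose their rods, as the strain of every sample, whereas the methods of the study give C57BL/6j mice and use the mutant as a rod subtraction control. They also write the embryonic stage as E17, and their antibody catalogue numbers are swapped between H3K4me2 and H3K27me3 relative to the methods, so each mark was taken from the sample title.

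No mark and stage had a second library. Differences between stages therefore have no replicate check and carry no p-value, and pool, sequencing batch and stage cannot be told apart. In whole retina, fewer cells with a mark and less of the mark per cell cannot be told apart either. Values are normalized occupancies, namely reads within 2.5 kb of a transcription start site (TSS) that the authors normalized to all mapped reads of a library and rounded to whole numbers. No whole number up to at least 109 is skipped in any of the 8 columns, so 1 read was worth at most about 1 unit. The 95% exact Poisson intervals below treat a unit as 1 read, are then at least as wide as the counting error and cover no other error. The H3K4me2 library of PN7 stood apart, with 19.5% of all 25152 entries at 0 against 0.362 to 2.52% in the other H3K4me2 libraries. The H3K27me3 library of PN7 did so too, with 3.70% against 0.0755 to 0.159%, and the steps to and from PN7 rest on these libraries. The median H3K4me2 of all symbols was 41, 27, 24 and 42 from E17.5 to PN15, and that of H3K27me3 was 11, 10, 9 and 10.

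Hox genes encode homeodomain transcription factors that give cells their position along the body axis. Their order along a cluster follows the order of their expression, low paralogue numbers in the hindbrain and high numbers in the trunk, limbs and tail. H3K27me3 is written by Polycomb repressive complex PRC2, and silent Hox clusters are the classical targets of Polycomb. H3K4me2 marks active and poised promoters, and promoters that hold both kinds of mark are called bivalent. The retina grows from the forebrain, in front of the domains where Hox genes are normally expressed.

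The promoters of 3 genes are shown because they are at the ends of the measured range: Hoxd9 had the highest mean H3K4me2 of the Hox genes over the 4 stages, Hoxb1 the lowest mean H3K4me2, and Hoxd13 the lowest mean H3K27me3. The sequences are the 250 bases before the RefSeq start in build GRCm38.p6, 5′ to 3′, with each CpG in capitals.
Hoxd9: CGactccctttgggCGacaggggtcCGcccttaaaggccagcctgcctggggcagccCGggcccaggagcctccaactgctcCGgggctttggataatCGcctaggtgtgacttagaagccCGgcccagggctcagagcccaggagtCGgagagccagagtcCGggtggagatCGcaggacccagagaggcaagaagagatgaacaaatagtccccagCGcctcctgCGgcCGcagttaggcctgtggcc
Hoxb1: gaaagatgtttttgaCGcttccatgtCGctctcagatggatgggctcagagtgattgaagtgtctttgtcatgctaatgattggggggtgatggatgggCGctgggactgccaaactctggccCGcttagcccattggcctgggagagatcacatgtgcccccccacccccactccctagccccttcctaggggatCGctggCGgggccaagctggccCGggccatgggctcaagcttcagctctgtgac
Hoxd13: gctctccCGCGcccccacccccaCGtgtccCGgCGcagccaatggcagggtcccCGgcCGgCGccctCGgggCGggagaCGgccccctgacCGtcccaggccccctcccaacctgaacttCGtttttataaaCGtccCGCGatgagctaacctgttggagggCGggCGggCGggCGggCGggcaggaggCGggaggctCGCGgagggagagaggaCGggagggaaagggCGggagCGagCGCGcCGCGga
The Hoxd9 stretch lies at chr2:74697513-74697762 on the plus strand, the Hoxb1 stretch at chr11:96365508-96365757 on the plus strand and the Hoxd13 stretch at chr2:74667975-74668224 on the plus strand. They hold 13, 7 and 31 CpG, against a median of 6 in the 250 bases before all 32851 RefSeq starts of the same table. As many CpG or more were found in 31.5% of all these promoters for Hoxd9, 46.3% for Hoxb1 and 5.19% for Hoxd13. The promoter of Hoxb1, the gene of rhombomere 4 identity, was thus close to the middle of all promoters and that of Hoxd13, a gene of digit and genital development, was near the upper end.

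Every Hox gene had high H3K27me3 around TSS at every stage. The median of the 38 genes was 702.5 at E17.5 (464 to 809), 952 at PN1 (657 to 1125), 656 at PN7 (497 to 766) and 317 at PN15 (223 to 397). These medians were 63.9, 95.2, 72.9 and 31.7 times those of all symbols. A value of at least 100, used here to call a symbol H3K27me3-rich, was reached by 38 of 38 Hox genes in each of the 4 libraries, against 7.99, 8.91, 7.96 and 4.77% of all symbols in stage order. All 38 were also above the 99th percentile of each library.

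The Hox genes made up the top of the H3K27me3 ranking. By the mean of the 4 stages, the 16 highest symbols were all Hox genes and 29 of the 38 highest were. The first symbol from elsewhere was Evx1, the homeobox gene beside the Hoxa cluster, at rank 17 with 722, 971, 602 and 364. Further down that list were Dmbx1, Cdx2 and Pax3, which are genes of developmental transcription regulators. The lowest Hox gene was Hoxd13 at rank 135. The summed H3K27me3 of the Hox genes made up between 3.70 and 4.33% of that of all symbols in the first 3 libraries and 2.53% in the last.

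The genes differed little among themselves in H3K27me3. The coefficient of variation over the 38 genes was between 10.8 and 12.6% in the first 3 libraries and 15% at PN15, against at most 3.28 to 5.59% from counting. The order of the genes was partly kept between libraries, with Spearman coefficients across the 38 genes of 0.56 to 0.78 for the 6 pairs of stages. Genes of a cluster are neighbours and some windows share reads, so they are not independent points.

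In the Hoxa cluster, the highest mean H3K27me3 was at Hoxa10, a gene of uterus and lumbar patterning, with values of 800, 1125, 721 and 334 in stage order. The second entry of Hoxa10, described below with that of Hoxb3, was lower at each stage. With 720, 946, 681 and 300, its mean was below that of Hoxa3, which had 702, 1063, 762 and 397. The first place of Hoxa10 thus rests on the entry used. Hoxa13, a gene of limb ends and the urogenital tract, had the lowest mean of the cluster, with 611, 797, 533 and 296. In each of the 4 stages Hoxa13 was below Hoxa10. At E17.5 the Poisson interval of Hoxa10 was 746 to 857 and that of Hoxa13 was 564 to 661. The choice of these genes by their means largely fixes this outcome, so it is no independent check.

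Hoxb6 was the highest of the Hoxb cluster, with 809, 1079, 690 and 385. The lowest mean was that of Hoxb8, a gene also known for its role in microglia and grooming behaviour, with 582, 851, 581 and 297. Hoxb8 was below Hoxb6 at each of the 4 stages, a direction that their choice as lowest and highest mean largely fixes. In Hoxc, Hoxc9, a gene of thoracic motor neurons, was highest with 809, 1116, 654 and 370. Hoxc13, a gene of hair and nail, was lowest of that cluster, with 646, 849, 594 and 272.

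The lowest H3K27me3 of all Hox genes was found in Hoxd. Hoxd13 had 487, 657, 510 and 224. Hoxd1, at the other end of the cluster, had 522, 661, 497 and 223, and Hoxd8, in between, had 464, 680, 579 and 231. These 3 genes were the lowest of the 38 at E17.5, PN1 and PN15. The highest mean of the cluster was at Hoxd4, a gene of the cervical vertebrae, with 769, 865, 704 and 318. The values along Hoxd did not follow the paralogue number.

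**Figure D1:**
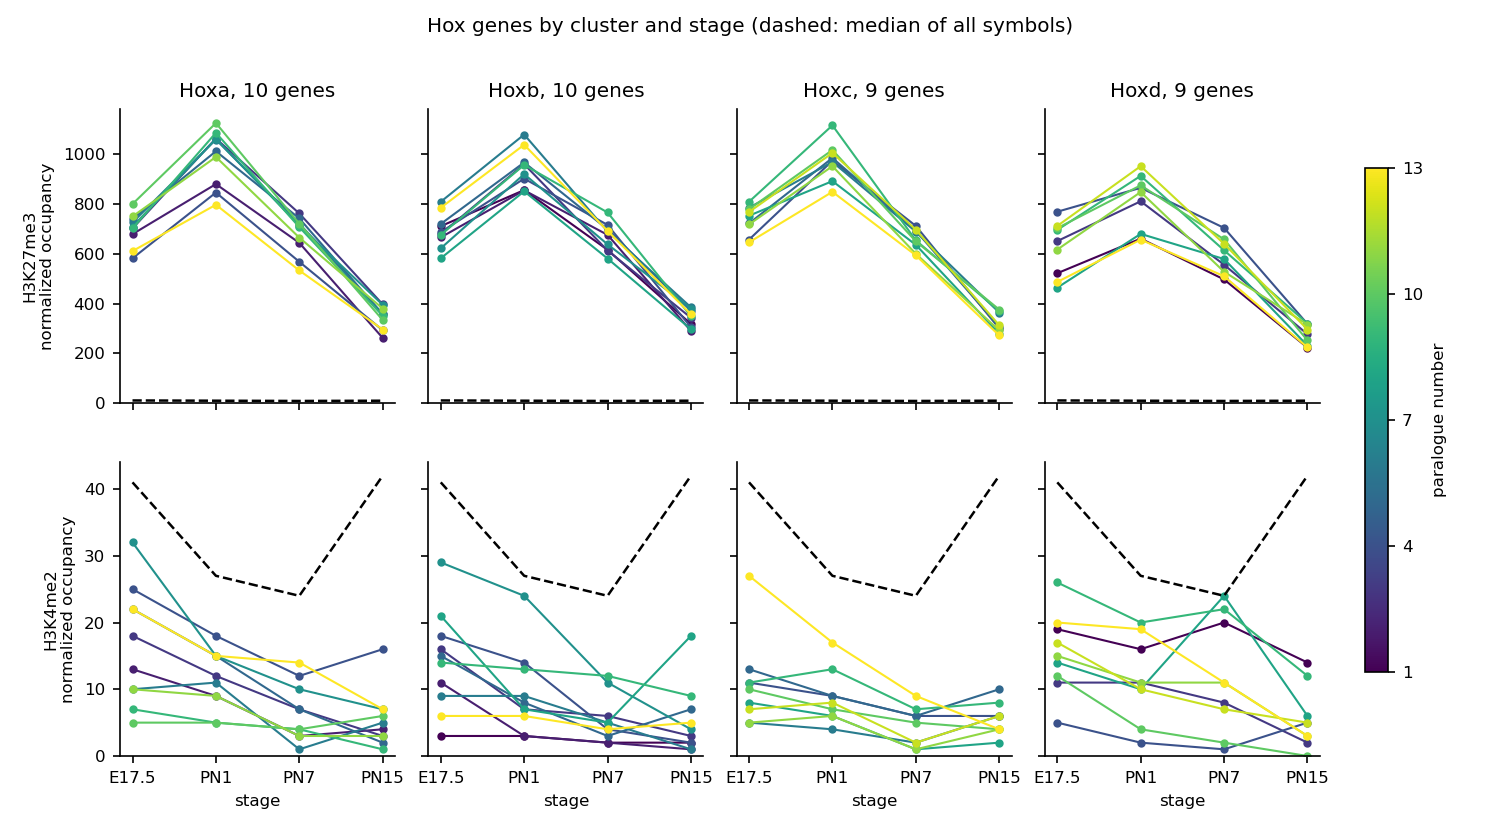
Normalized occupancy of H3K27me3 (upper row) and H3K4me2 (lower row) at 4 stages in 1 library each. A line is a Hox gene coloured by paralogue number, and the dashed line is the median of all symbols. H3K27me3 was highest at PN1 in every gene and stayed far above the dashed line, and H3K4me2 stayed below it except for Hoxd8 at PN7.

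Outside the clusters H3K27me3 at the TSS of the nearest genes was mostly lower, and nothing between the TSS was measured here. In mm9 the Hox genes described span chr6:52112350-52210874 for Hoxa, chr11:96055630-96229570 for Hoxb, chr15:102751534-102867274 for Hoxc and chr2:74506367-74603200 for Hoxd. Evx2, 8.89 kb beyond Hoxd13, had 637, 825, 588 and 280, and Evx1, 52.6 kb beyond Hoxa13, has been given above. Both lay within the range of the Hox genes at each stage. Some of the next genes were lower than the Hox genes but had H3K27me3 of 100 or more at 3 or 4 of the stages. On the other side of Hoxa, Skap2 had 175, 234, 187 and 92 at a distance of 153 kb. Beside Hoxb, Skap1 had 208, 225, 244 and 114 at 98.8 kb, and Ttll6 had 97, 128, 135 and 102 at 60.5 kb. Others were lower at E17.5. At the borders of Hoxd, Lnp had 13 at 89.4 kb and Mtx2 had 29 at 62.8 kb. Beside Hoxc, Smug1 had 58 at 124 kb and Calcoco1 had 25 at 199 kb. Windows of 5 kb overlapped for 6 pairs of Hox genes that involve 10 genes, the closest being Hoxb7 and Hoxb8 with TSS 2.35 kb apart, so 28 genes have a window that overlaps no other.

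**Figure D2:**
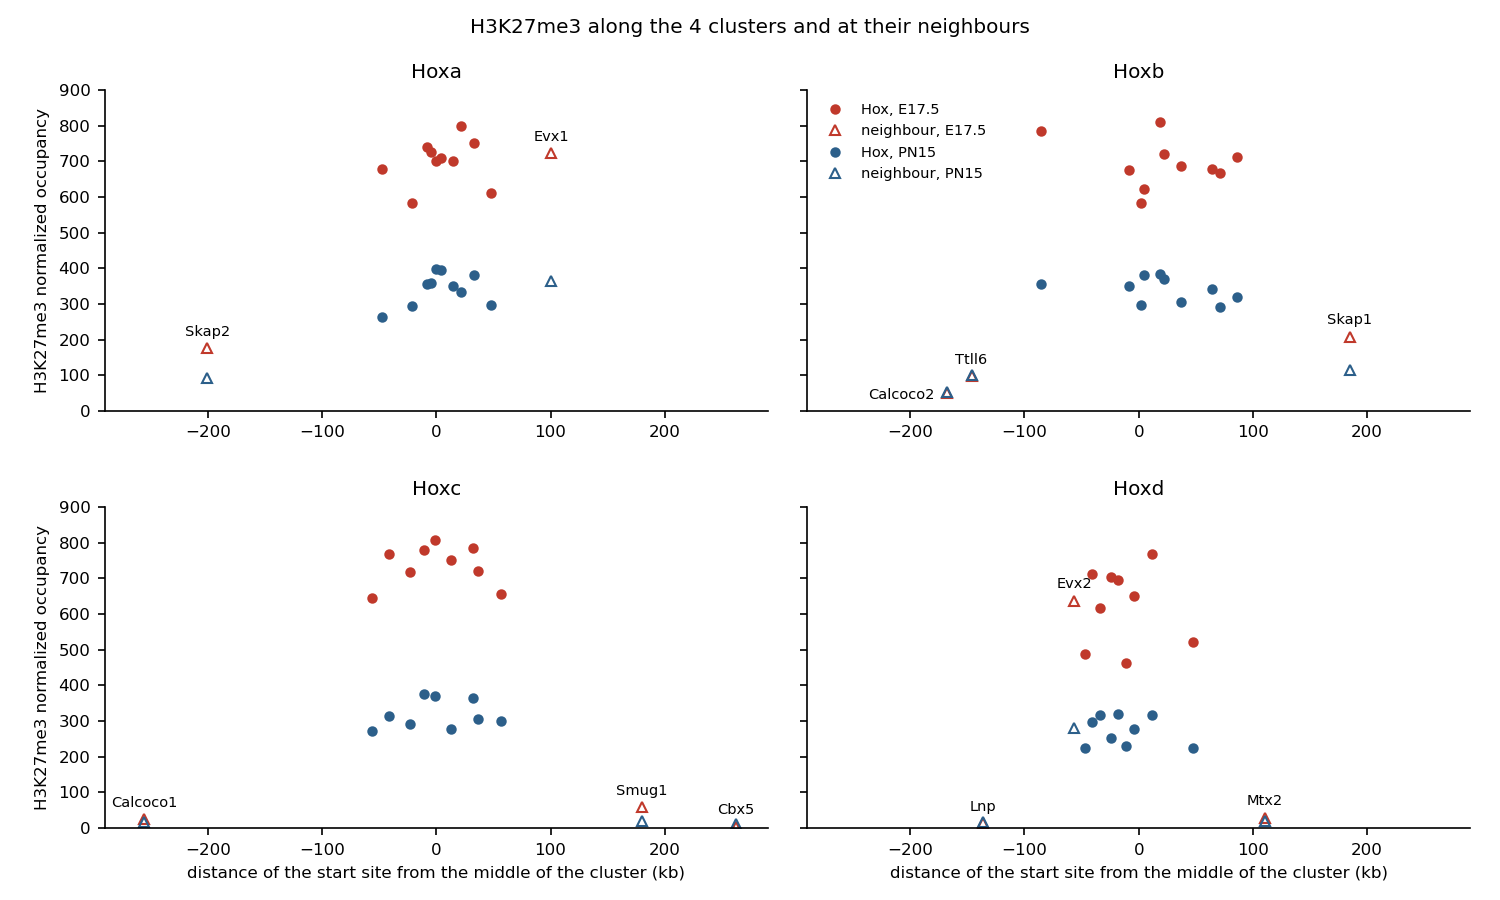
H3K27me3 normalized occupancy at E17.5 (red) and PN15 (blue) against the distance of the TSS from the middle of each cluster in kb. Circles are Hox genes and triangles the nearest other genes in the table within 280 kb, and Evx1 and Evx2 are the neighbours at the height of the Hox genes.

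H3K27me3 at the Hox genes was higher at PN1 than at E17.5 and lower at each stage after that. From E17.5 to PN1 the median log2 change, with 1 added to each value, was 0.42, and 38 of 38 genes were higher, 37 of them with Poisson intervals that do not overlap, against 3.26% of all symbols and 64.3% of the other symbols with at least 400 at E17.5, a level chosen after the values were seen. From PN1 to PN7 it was -0.53, and 38 of 38 genes were lower with intervals apart, against 7.94% of all symbols and 95.9% of the others with at least 400. From PN7 to PN15 it was -1.01, and 38 of 38 were again lower with intervals apart, against 9.03 and 98.8%. With the libraries rescaled to the same sum the median changes of these steps were 0.21, -0.20 and -0.57. In the last step, in the deposited values, 21 of 38 fell at least 2-fold, against 9.7% of all symbols and 63.9% of the others with at least 400. Between E17.5 and PN15 the median change was -1.12 (-1.48 to -0.71), with 38 of 38 genes lower and intervals apart in all of them, against 10.5% of all symbols and 100% of the others with at least 400. Of the 38 genes, 27 fell at least 2-fold, against 16.1% of all symbols, whose median change was 0.00.

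Other symbols with much H3K27me3 at E17.5 went the same way. Of the 1562 others with at least 100 at E17.5, 63.6% fell at least 2-fold by PN15, with a median change of -1.16. Of the 244 others with at least 400, 86.5% did, with a median of -1.31. The share of Hox genes was 71.1%, between those of the 2 sets, and since every Hox gene began at 464 or more the second set is the more alike. From E17.5 to PN1 the median changes were 0.22 in the first of these sets and 0.31 in the second, beside 0.42 at the Hox genes.

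The count also depends on how the libraries are scaled. With the libraries rescaled to the same median over all symbols, 15 of 38 Hox genes fell at least 2-fold, against 11.7% of all symbols and 73.0% of the others with at least 400, and the median change was -0.98. With the libraries rescaled to the same sum, the median change was -0.56 and 0 of 38 fell at least 2-fold, against 5.49% of all symbols and 20.5% of the others with at least 400. In that scaling 26.1% of all symbols rose at least 2-fold, and their median change was 0.48. All 38 genes were lower at PN15 than at E17.5 under each of these scalings. The Hox median less the median of all symbols was -1.12 on the log2 scale in the deposited values, -1.09 with the same median and -1.04 with the same sum. The median H3K27me3 of all symbols was 9 to 11 in the deposited values, far under the Hox genes. The others with at least 400 are closer in level, and their median changes were -1.31, -1.18 and -0.76 in the same order. By the median, Hox genes thus decreased less than these others under each scaling.

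The largest decrease was at Hoxd10, a gene of hindlimb motor neurons, with H3K27me3 of 703, 875, 658 and 252 at the 4 stages, a log2 change of -1.48 from E17.5 to PN15. Next were Hoxc8, a gene of the thoracic skeleton and motor neurons, with 753, 892, 636 and 279 (-1.43) and Hoxa2, a gene of the second branchial arch, with 679, 880, 644 and 262 (-1.37). The smallest decreases were at Hoxb7 with 622, 920, 638 and 380 (-0.71), Hoxa3, a gene of pharyngeal organs, with 702, 1063, 762 and 397 (-0.82), and Hoxa7 with 709, 1062, 713 and 395 (-0.84). Hoxb7, Hoxa3 and Hoxa7 all have windows that overlap another Hox window. At PN15 these last 3 genes lay between 380 and 397 and the first 3 between 252 and 279, whereas at E17.5 the 2 groups of values ran from 622 to 709 and from 679 to 753. The choice of these genes fixes the direction of that comparison.

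By cluster, the median decrease was somewhat less in Hoxa and Hoxb than in Hoxc and Hoxd. The median H3K27me3 at E17.5 was 705.5 in Hoxa, 683 in Hoxb, 753 in Hoxc and 651 in Hoxd, and at PN15 it was 354, 346, 306 and 277 in the same order. Median log2 changes were -1.01, -1.03, -1.24 and -1.22. At least 2-fold decreases were counted in 5 of 10 Hoxa genes, 5 of 10 Hoxb genes, 9 of 9 Hoxc genes and 8 of 9 Hoxd genes, against the 16.1% of all symbols and 86.5% of the others with at least 400 given above. The cut lay in the middle of Hoxa and Hoxb, so these counts overstate the difference between medians. Hoxa9 went from 702 to 351 and missed the cut only through the 1 added. Hoxa4, Hoxa11 and Hoxb3 missed it at -0.99, -0.98 and -0.98, and Hoxa6 passed it at -1.01. The ranges of the genes overlapped, from -1.37 to -0.82 in Hoxa, -1.20 to -0.71 in Hoxb, -1.43 to -1.05 in Hoxc and -1.48 to -0.96 in Hoxd. With the 28 genes whose windows overlap no other, the median changes were -1.02, -1.15, -1.24 and -1.22, so that Hoxb came closer to Hoxc and Hoxd. No test of this difference was made, since genes of a cluster are not replicates of a condition.

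Paralogue number showed little relation with either mark. Genes 1 to 4, which act in the hindbrain and neck, had a median H3K27me3 of 679 at E17.5 and a median change of -1.17. For genes 5 to 8 these were 722 and -1.01, and for genes 9 to 13, which act in the lower trunk, limbs and tail, they were 707.5 and -1.12. Of the 11 genes 5 to 8 only 2, Hoxc8 and Hoxd8, have windows that overlap no other, with a median of 608.5 and a median change of -1.22, so the values of that class rest mostly on genes with overlapping windows. Across the 38 genes the Spearman coefficient between paralogue number and mean occupancy was 0.06 for H3K27me3 and 0.07 for H3K4me2.

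Paralogues, the genes of 1 number in different clusters, arose from a single ancestral gene and often act together. Their mean H3K27me3 over the stages was closest for number 2, where Hoxa2 and Hoxb2 lay at 616.25 and 621.75, and next for number 5, where Hoxa5, Hoxb5 and Hoxc5 lay between 676.5 and 712.5. It differed most for number 13. Hoxb13, the prostate gene of that group, had 785, 1038, 692 and 357 and lies apart from its cluster, with 77.1 kb to the next Hox TSS, whereas Hoxd13 had a mean of 469.5. For number 1, Hoxb1 had H3K27me3 of 711, 856, 616 and 318, above Hoxd1 at each stage. Hoxb1 and Hoxd1 also stood at opposite sides in H3K4me2.

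Other genes of the posterior numbers 9 to 12 are given by their values. Hoxa9 had H3K27me3 of 702, 1086, 707 and 351, and Hoxb9 had 676, 957, 766 and 349. Hoxa11 and Hoxd11, which act together in the forearm and kidney, had 750, 989, 665 and 380 and 617, 848, 528 and 316. Hoxc10, Hoxc11 and Hoxc12 lay between 718 and 779 at E17.5 and between 292 and 376 at PN15. Hoxd11 was thus below Hoxa11 at all 4 stages.

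**Figure D3:**
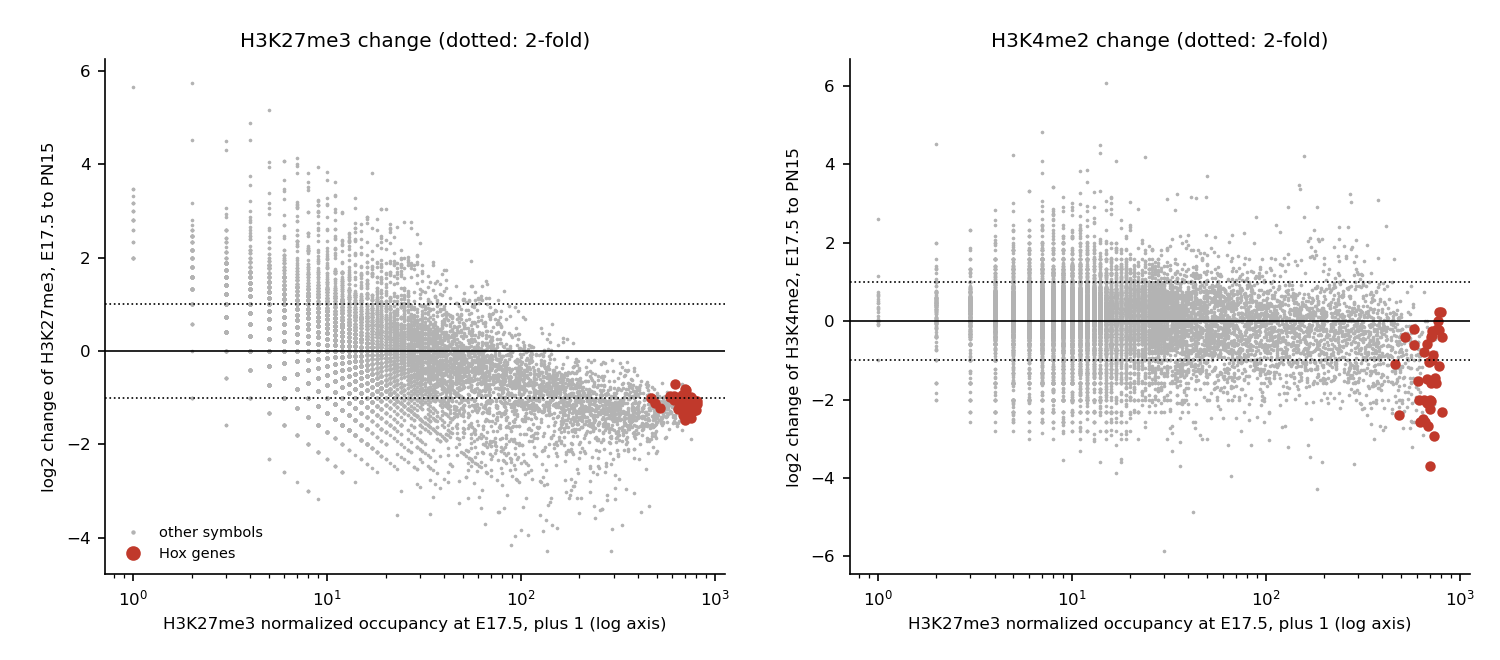
The log2 change from E17.5 to PN15 of H3K27me3 (left) and H3K4me2 (right) against H3K27me3 at E17.5, with the Hox genes in red and all other symbols in grey. The Hox genes lie at the right end, between -1.48 and -0.71 for H3K27me3, as most other symbols with high H3K27me3 do, and between -3.70 and 0.22 for H3K4me2.

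H3K4me2 was low at the Hox genes. The median was 13 at E17.5 (3 to 32), 9 at PN1 (2 to 24), 5.5 at PN7 (1 to 24) and 4.5 at PN15 (0 to 18). The number of Hox genes below the median of all symbols was 38, 38, 37 and 38 of 38, and the exception was Hoxd8 at PN7, whose 24 equals the median of that library. The lower quartile of all symbols was 5, 7, 1 and 6, and 1, 10, 0 and 23 of the 38 genes were below it. The values were thus low but mostly not at the bottom of the distribution until PN15.

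The gene with the most H3K4me2 was Hoxd9, with 26, 20, 22 and 12 over the stages. Within the other clusters the highest means were those of Hoxa4 with 25, 18, 12 and 16, Hoxb7 with 29, 24, 11 and 4, and Hoxc13 with 27, 17, 9 and 4. Hoxd1 had 19, 16, 20 and 14 and Hoxd8 had 14, 10, 24 and 6, so that these 2 genes, with Hoxd9, held the 3 highest values of the Hox genes at PN7. Hoxb1 was at the other end with 3, 3, 2 and 2. The highest single value was the 32 of Hoxa7 at E17.5, with a Poisson interval of 21.9 to 45.2 that includes the median of all symbols.

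From E17.5 to PN15 H3K4me2 at most Hox genes decreased. The median log2 change was -1.30 (-3.70 to 0.22), with 35 of 38 genes lower, and 23 of 38 fell at least 2-fold against 11.7% of all symbols, whose median change was 0.13. Of the other symbols with H3K27me3 of at least 100 at E17.5, 23.1% fell at least 2-fold, with a median of -0.31, and of those with at least 400, 39.8%, with a median of -0.72. Among the 6207 other symbols within the Hox range of H3K4me2 at E17.5, 23.9% did, with a median of -0.24. The summed H3K4me2 of the 38 genes was 542, 390, 264 and 206. Poisson intervals were apart in 9 of 38 genes, all lower at PN15, against 4.42% of all symbols and 28.7% of the others with H3K27me3 of at least 400, and a value near 5 carries a wide interval, from 1.62 to 11.7 for 5.

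The largest H3K4me2 decrease was again at Hoxd10, with 12, 4, 2 and 0 over the stages. The Poisson interval of the 12 at E17.5 was 6.20 to 21.0 and that of the 0 at PN15 reached 3.69, so the intervals are apart, and the log2 change of -3.70 depends on the 1 added. Hoxd10 was picked for this decrease, so the separate intervals are no independent check. Hoxa5, a gene of lung development, had 22, 15, 7 and 2, and Hoxb4, known from blood stem cells, had 18, 14, 4 and 2. At the other end Hoxa10 had 5, 5, 4 and 6, Hoxc6 had 5, 4, 2 and 6, and Hoxd4 had 5, 2, 1 and 5. These 3 genes began low, and their values at the 4 stages are within counting error of each other. Hoxb8 was lower at PN1 and PN7 than at both ends, with 21, 7, 5 and 18.

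The steps between stages cannot be read from the deposited H3K4me2 values alone, since the level of all symbols moved. The median log2 change of the Hox genes was -0.39, -0.54 and -0.40 in the 3 steps, beside -0.42, -0.50 and 1 for all symbols. With the libraries rescaled to the same median the Hox values were 0.15, -0.39 and -1.09. From E17.5 to PN15 the rescaled median change was -1.28. In the step from PN7 to PN15, 52.3% of all symbols rose at least 2-fold and 2.06% fell by as much, against 7 and 11 of 38 Hox genes. Of the other symbols with H3K27me3 of at least 400 at E17.5, 7.38% rose and 17.6% fell at least 2-fold in that step.

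By cluster, the median H3K4me2 change from E17.5 to PN15 was -1.50 in Hoxa, -1.54 in Hoxb, -0.42 in Hoxc and -1.58 in Hoxd. At least 2-fold decreases were counted in 7 of 10, 6 of 10, 3 of 9 and 7 of 9 genes, against 11.7% of all symbols and 39.8% of the others with H3K27me3 of at least 400. Without overlapping windows the Hoxc median was -0.78, and with the first entry of a symbol the Hoxb median was -1. With 5 added to each value in place of 1 the medians were -1, -0.98, -0.30 and -1.14 from Hoxa to Hoxd. Hoxc began lowest, with a median of 10 at E17.5 against 15.5, 14.5 and 15, and was at 6 at PN15 against 4.5, 3.5 and 5.

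The number of Hox promoters with both marks depended on the level of H3K4me2 asked for. A symbol was taken to have both where H3K27me3 was at least 100 and H3K4me2 was at or above the median of all symbols in its library. By this rule 0 Hox genes had both at E17.5, 0 at PN1, 1 at PN7 (Hoxd8) and 0 at PN15, against 2.86, 3.28, 4.47 and 0.848% of all symbols. Shares this small allow few of 38 genes, so these counts do not set the Hox genes apart from all symbols. Of all H3K27me3-rich symbols, 35.9, 36.8, 56.2 and 17.8% had both marks in stage order. The rule is a matter of the level chosen. With the lower quartile in place of the median, 37, 28, 38 and 15 of 38 Hox genes had both, against 7.85, 8.52, 7.93 and 4.33% of all symbols. Of all H3K27me3-rich symbols, 98.3, 95.6, 99.7 and 90.8% had both by that rule, and at PN7 the lower quartile was only 1. Their H3K4me2 was therefore between the lower quartile and the median of all symbols in most genes at E17.5 and under the lower quartile in most genes at PN15.

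**Figure D4:**
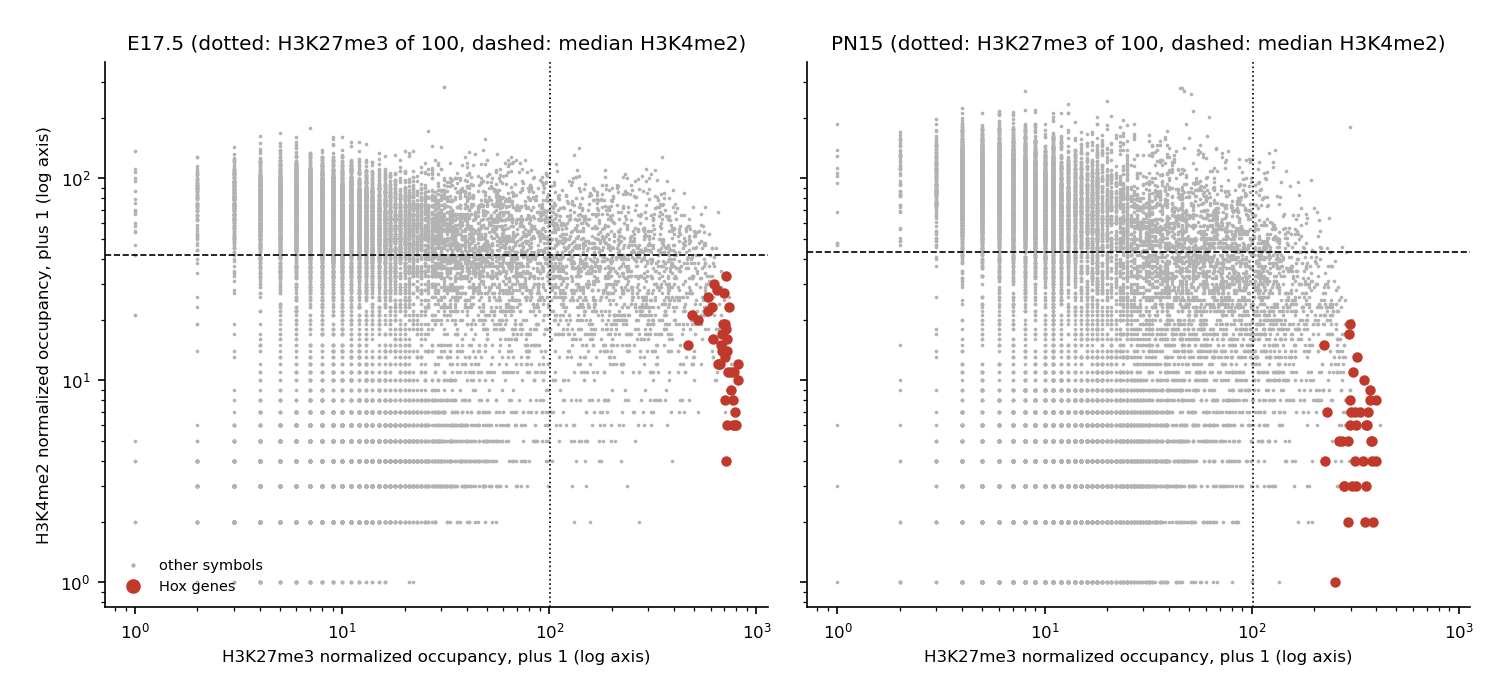
H3K4me2 against H3K27me3 normalized occupancy at E17.5 (left) and PN15 (right), 1 added to each value, on log axes, with Hox genes in red and other symbols in grey. The dotted line is an H3K27me3 of 100 and the dashed line the median H3K4me2 of all symbols, and the 38 Hox genes lie to the right of the first and below the second at both stages.

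Within the Hox genes, more H3K4me2 went with slightly less H3K27me3. The Spearman coefficient between the means of the 2 marks was -0.35 across 38 genes and -0.20 across the 29 genes without Hoxd. The number of CpG in the 5 kb around the annotated TSS ran from 109 to 305 with a median of 175, against 102 in other symbols and 181 in other symbols with at least 400 of H3K27me3 at E17.5. Across the 38 genes the CpG number had a coefficient of 0.57 with mean H3K4me2 and -0.26 with mean H3K27me3, the latter being -0.15 without Hoxd. Hoxb1 had the lowest CpG number, 109, and the lowest H3K4me2. Hoxd11 had the highest, 305, with H3K4me2 of 15, 11, 11 and 3. These coefficients describe genes that share libraries and, in part, reads.

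A pair of symbols had a second entry, another TSS of the same gene, and each is represented by the entry with the larger sum. Hoxa10 had 800, 1125, 721 and 334 of H3K27me3 in the first entry and 720, 946, 681 and 300 in the second, with H3K4me2 of 5, 5, 4 and 6 and of 13, 12, 3 and 6. For Hoxb3 the entry used had 679, 960, 613 and 343 of H3K27me3, and the other had 729, 916, 680 and 274. Its H3K4me2 was 16, 7, 6 and 3 in the entry used and 3, 3, 1 and 1 in the other. Both TSS of either gene were thus H3K27me3-rich at all stages.

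Related genes outside the clusters were compared by their counts. Of the 8 ParaHox and Evx genes (Gsx1, Gsx2, Pdx1, Cdx1, Cdx2, Cdx4, Evx1 and Evx2), the nearest relatives of the Hox genes, 8 were H3K27me3-rich at E17.5, against 7.99% of all symbols, with medians of 660.5, 805.5, 572 and 267.5, and 0 reached the H3K4me2 median at PN15, as 50.4% of all symbols did. Gsx1 differed, with H3K4me2 of 84, 51, 58 and 28 and H3K27me3 of 444, 646, 488 and 261. By the rule above it had both marks at E17.5, PN1 and PN7, unlike the others of the list. The 9 TALE cofactors with which Hox proteins bind DNA (the Pbx, Meis and Pknox genes) were unlike the ParaHox and Evx genes. None of the 9 was H3K27me3-rich at E17.5, against 7.99% of all symbols, 8 of 9 were at or above the H3K4me2 median at PN15, against 50.4%, and their H3K4me2 medians were 81, 49, 90 and 103. Meis1 had H3K4me2 of 117, 94, 111 and 232 with H3K27me3 of 5, 7, 8 and 12.

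Homeobox genes that act in the retina were mostly unlike the Hox genes. Of 10 such genes 2 were H3K27me3-rich at E17.5, Vsx1 with 378 and Otx2 with 212, against 7.99% of all symbols, and 8 were at or above the H3K4me2 median at PN15, against 50.4%. H3K27me3 rose at least 2-fold in 6 of them, against 12.2% of all symbols, and fell at least 2-fold in 2, against 16.1%. Pax6, the eye master regulator, had H3K27me3 of 4, 15, 113 and 178. Of the 43 Forkhead genes, another family of developmental regulators, 21 were H3K27me3-rich at E17.5, against 7.99% of all symbols, and 18 fell at least 2-fold, against 16.1%, with a median change of -0.84.

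Cell type markers moved with the stages as follows. The median H3K4me2 of 8 rod markers was 11, 15, 21 and 106, and all 8 rose at least 2-fold from E17.5 to PN15, against 7.84% of all symbols, while their H3K27me3 medians stayed between 10 and 15. The 3 lens markers had H3K4me2 medians of 7, 9, 1 and 6, the 4 pigment epithelium markers 2.5, 4, 0 and 4, and the 3 blood vessel markers 20, 15, 5 and 4. In stage order the summed H3K4me2 was 18, 26, 4 and 13 for the lens list, 43, 36, 9 and 17 for the pigment epithelium list and 136, 104, 61 and 74 for the vessel list. No gene of these lists was H3K27me3-rich at E17.5, against 7.99% of all symbols, a share that allows few or none in lists this short. The vessel sum was mostly that of Kdr, with 112, 84, 55 and 70, whereas Pecam1 and Cdh5 were between 0 and 20. The pigment epithelium sum was carried by Rlbp1, also a gene of Müller glia, with 37, 26, 9 and 6, whereas Rpe65, Tyr and Best1 were between 0 and 8. The part of such changes in cell makeup in the values of the Hox genes was not tested.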

How the data were processed

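Chromatin of pooled retinas was immunoprecipitated for either mark and sequenced, and 8 of the 10 samples of the series have a column in the deposited table. The other 2 samples were not analysed here. Per the labels, reads were mapped to mm9 with Bowtie 0.12.4. The deposited values are scores, namely reads that the authors summed within 2.5 kb of each RefSeq TSS, normalized to all mapped reads and rounded. They are not read counts, and no count model was used. Depth in reads is unknown, so Poisson intervals rest on taking a unit as 1 read.

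A symbol with several entries was represented by the one whose 8 columns add up to most. Changes are log2 ratios with 1 added, a change was called at 2-fold, and H3K27me3-rich means at least 100. CpG and positions come from 5 kb around the first coding TSS in the mm9 annotation (GENCODE vM1), found for 38 Hox genes and 19474 symbols in all, which may not be the TSS of the authors. Promoter sequences are from RefSeq, where 22 of the 38 genes matched. A further symbol of the form is not reported here.

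Members and gene lists were chosen with earlier results of these data known. Named genes were, for each cluster, those with the highest and lowest mean H3K27me3 and the highest mean H3K4me2, the 3 largest and 3 smallest H3K27me3 decreases, the 3 lowest and 3 highest H3K4me2 changes, and genes with several entries. Others were named after their values were seen. The alternatives were an added value of 5, rescaling of the libraries to a common median or sum, other entries of a symbol, folds of 1.5 and 3, levels of 50 and 200, other H3K4me2 quantiles and members without overlapping windows. Calculations were made in scipy 1.17.1, pandas 2.3.3, numpy 2.4.6 and matplotlib 3.10.9 under Python 3.11.15, and the steps were tested on simulated data.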

Additional observations from a re-analysis of the deposited data

How the results depend on the processing

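No paired analysis was possible because each mark and stage has 1 library. Of 266 values computed under the alternatives, 232 stayed within 1.5 times a count or within the 95% order-statistic interval of a median over genes, and the H3K27me3-rich counts were 38 of 38 at each stage under every alternative run. For H3K27me3 from E17.5 to PN15 the count past 2-fold went from 27 to 15 with libraries rescaled to the same median, to 0 with the same sum and to 0 at 3-fold. Rescaled to the same median, the median H3K27me3 changes were 0.55, -0.38 and -1.16 in the 3 steps and -0.98 in all, and rescaled to the same sum they were 0.21, -0.20, -0.57 and -0.56. Rescaled to the same sum, they were -0.45 in Hoxa, -0.47 in Hoxb, -0.68 in Hoxc and -0.67 in Hoxd, and -0.61, -0.46 and -0.56 in paralogues 1 to 4, 5 to 8 and 9 to 13. Rescaled to the same median, they were -0.89 in Hoxb, -1.10 in Hoxc and -0.99 in paralogues 9 to 13, and the median levels at E17.5 were 621 in Hoxb and 643 in paralogues 9 to 13. Rescaling shifts all genes almost alike and cannot show whether clusters differ. Hoxb was at -1.10 with the mean over entries or the first entry and at -1.15 without overlapping windows, against -1.03.

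For H3K4me2 the direction from E17.5 to PN1 turned, from -0.39 to 0.15 with the same median and 0.063 with the same sum, which follows from the lower level of all symbols at PN1. From PN1 to PN7 the change was -0.39 with the same median and -0.36 with a pseudocount of 5, and from PN7 to PN15 it was -1.09 and -1.06 with the same median and sum. Both marks were counted in 37, 28, 38 and 15 Hox genes with the lower quartile of H3K4me2, and in 0 at PN7 with the upper quartile. The cause of the differences between scalings was not tested. Values of H3K4me2 near 5 limit what a single gene can show.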
